A study of Mus musculus with 9 samples.

Results

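The expression of 10 genes of the chemokine system was described in the kidneys of Trex1-/- mice: the CXCR3 ligands Cxcl9, Cxcl10 and Cxcl11, their receptor Cxcr3, the CC chemokines Ccl2, Ccl5 and Ccl8, the neutrophil attractant Cxcl1, and the transmembrane chemokines Cx3cl1 and Cxcl16. The genes were listed by name, and their rows were taken from all 9 kidney RNA-seq libraries. All 10 were among the 54532 gene rows of the count tables, and all 10 were among the 16646 genes tested after a filter on low counts. There were 3 libraries in each of 3 groups. The WT group held kidneys of wild-type C57BL/6J mice, bought at 4 to 8 weeks of age and with no injection named in the labels. The second group held Trex1-/- mice on the C57BL/6J background, bred from heterozygous parents. They received PBS in place of the drug by daily intraperitoneal injection for 2 weeks from 1 month of age. This PBS is described in the study's methods as PBS with Tween 80. The third held Trex1-/- mice that received the STING antagonist SN-011 at 10 mg/kg by daily intraperitoneal injection for 2 weeks from 1 month of age. The Trex1 deletion is present in every cell of both Trex1-/- groups, no WT mice given SN-011 were among these libraries, and the sex of the animals is not in the labels.

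Chemokines are small secreted or membrane-bound proteins that direct leukocyte migration through G protein-coupled receptors. TREX1 degrades cytosolic DNA, and in its absence the DNA sensor cGAS activates STING, which drives type I interferon and NF-kappaB transcription. CXCL9, CXCL10 and CXCL11 are induced by interferons and attract activated T cells and NK cells through CXCR3. CCL2 recruits monocytes, and CCL5 is made by activated T cells, NK cells and macrophages. CXCL1 recruits neutrophils through CXCR2, and CX3CL1 and CXCL16 tether leukocytes that carry CX3CR1 or CXCR6. In nephritis these ligands are made by tubular, endothelial and mesangial cells as well as by leukocytes.

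Cxcl9, Cxcl10 and Cxcl11 lie side by side on chromosome 5 (GRCm38, GENCODE vM21), all on the minus strand. The gap is 18.6 kb between Cxcl9 and Cxcl10 and 10.7 kb between Cxcl10 and Cxcl11. Cxcl9 spans 92321347 to 92328079, Cxcl10 spans 92346638 to 92348889 and Cxcl11 spans 92359544 to 92365485. Cxcl10 and Cxcl11 sit within Art3, which is transcribed from the other strand, and 133 of the 2252 exon bases of Cxcl10 are shared with Art3 exons. Cxcl11 is annotated as a polymorphic pseudogene, since the C57BL/6 allele carries a frameshift, so its RNA is not expected to give a full protein. Cxcl1 belongs to a separate cluster on the same chromosome at 90891241 to 90893115, and Cxcr3 is on chromosome X. Ccl2, Ccl8, Ccl5 and Cxcl16 are on chromosome 11, and Cx3cl1 is on chromosome 8.

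A promoter sequence was in the RefSeq table for 6 of the 10 genes (Cxcl9, Cxcl10, Cxcr3, Ccl8, Cxcl1 and Cx3cl1). Those of Cxcl9 and Cxcl10, both called higher in Trex1-/- PBS kidneys, and of Cxcl1, the NF-kappaB-linked member whose groups overlapped there, are shown for comparison, as 240 bases from 250 to 11 bases before the start site (RefSeq, GRCm38.p6, strand of the gene). Capitals mark matches to the interferon-stimulated response element (ISRE) core or to the kappaB motif. The windows are chr5:92328090-92328329 on the minus strand, chr5:92348900-92349139 on the minus strand and chr5:90890995-90891234 on the plus strand.
Cxcl9: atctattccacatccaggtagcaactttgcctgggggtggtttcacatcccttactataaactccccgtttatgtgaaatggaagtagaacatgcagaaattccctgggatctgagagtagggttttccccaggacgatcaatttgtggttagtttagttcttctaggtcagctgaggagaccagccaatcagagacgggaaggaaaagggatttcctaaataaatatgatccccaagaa
Cxcl10: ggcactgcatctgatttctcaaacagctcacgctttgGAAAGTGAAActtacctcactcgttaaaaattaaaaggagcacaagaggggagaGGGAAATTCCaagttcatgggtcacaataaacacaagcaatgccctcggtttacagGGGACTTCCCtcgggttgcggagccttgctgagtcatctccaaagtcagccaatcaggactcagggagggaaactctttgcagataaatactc
Cxcl1: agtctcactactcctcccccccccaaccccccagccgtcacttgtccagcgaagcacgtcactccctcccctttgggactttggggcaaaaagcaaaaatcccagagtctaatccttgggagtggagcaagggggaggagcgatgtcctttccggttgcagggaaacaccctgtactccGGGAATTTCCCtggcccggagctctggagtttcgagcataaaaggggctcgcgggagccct
The 250 bases before each start site were searched on both strands for the ISRE core (GAAA, 2 bases of any kind and GAAA), for the STAT motif (GAS) TTCNNNGAA and for the kappaB consensus. Of 32851 mouse promoters, 2.98% held the ISRE core, 7.02% the STAT motif and 3.9% the kappaB motif. The Cxcl10 promoter held 1 ISRE match, GAAAGTGAAA at bases -213 to -204, and 2 separate kappaB matches, GGGAAATTCC at -159 to -150 and GGGACTTCCC at -103 to -94. The Cxcl1 promoter held 2 overlapping kappaB matches between bases -71 and -61 and no ISRE core. None of the 3 motifs was found in the windows of Cxcl9, Cxcr3, Ccl8 or Cx3cl1, which says only that these letters were not in these windows.

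Libraries held 16118813 to 21928965 counts, so that 1 count was worth 0.0452 to 0.0622 CPM (counts divided by the TMM-scaled library size, in the usual unit). Trex1 had 0 counts in all 9 libraries, WT included, so that its own count does not check the genotype. Atrip, whose annotated span contains Trex1 on the same strand, was at 14.4 to 16.1 CPM in the WT libraries and at 37.1 to 48.5 CPM in the 6 libraries labelled Trex1-/-. The 11 kidney tubule markers summed to 18100 to 21600 CPM in every library, and no library stood apart as another tissue. Over all genes, SN-011 replicate 2 differed from replicates 1 and 3 by 74.1 and 65 times the counting variance (chi-square per gene), against 15.1 between those 2 and 7.78 to 31.4 in the other groups. Reads of 4 Y-linked genes (157 to 203 CPM in sum) were present in WT replicate 3, in all Trex1-/- PBS libraries and in SN-011 replicate 2, and at most 0.377 CPM was seen in the other 4 libraries. The labels do not say that libraries came from separate animals beyond their numbering, so p-values measure the spread between these libraries.

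Cxcl9 and Cxcl10 were significantly higher in Trex1-/- PBS than in WT kidneys, and Cxcl10 remained significantly higher than WT in the SN-011 group. In every Trex1-/- PBS library the other members except Cxcl1 lay above all WT libraries, but none of these differences passed the adjusted threshold. In SN-011 libraries Cxcl9, Cxcl10, Cxcl11, Ccl5, Cxcr3 and Cx3cl1 lay below all PBS libraries, and Cxcl1 lay above them, and again none passed. Tests were made with edgeR's quasi-likelihood F test across all genes with Benjamini-Hochberg adjustment, and a gene was called at an adjusted p under 0.05. The values of the 10 genes by library are plotted first.

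**Figure D1:**
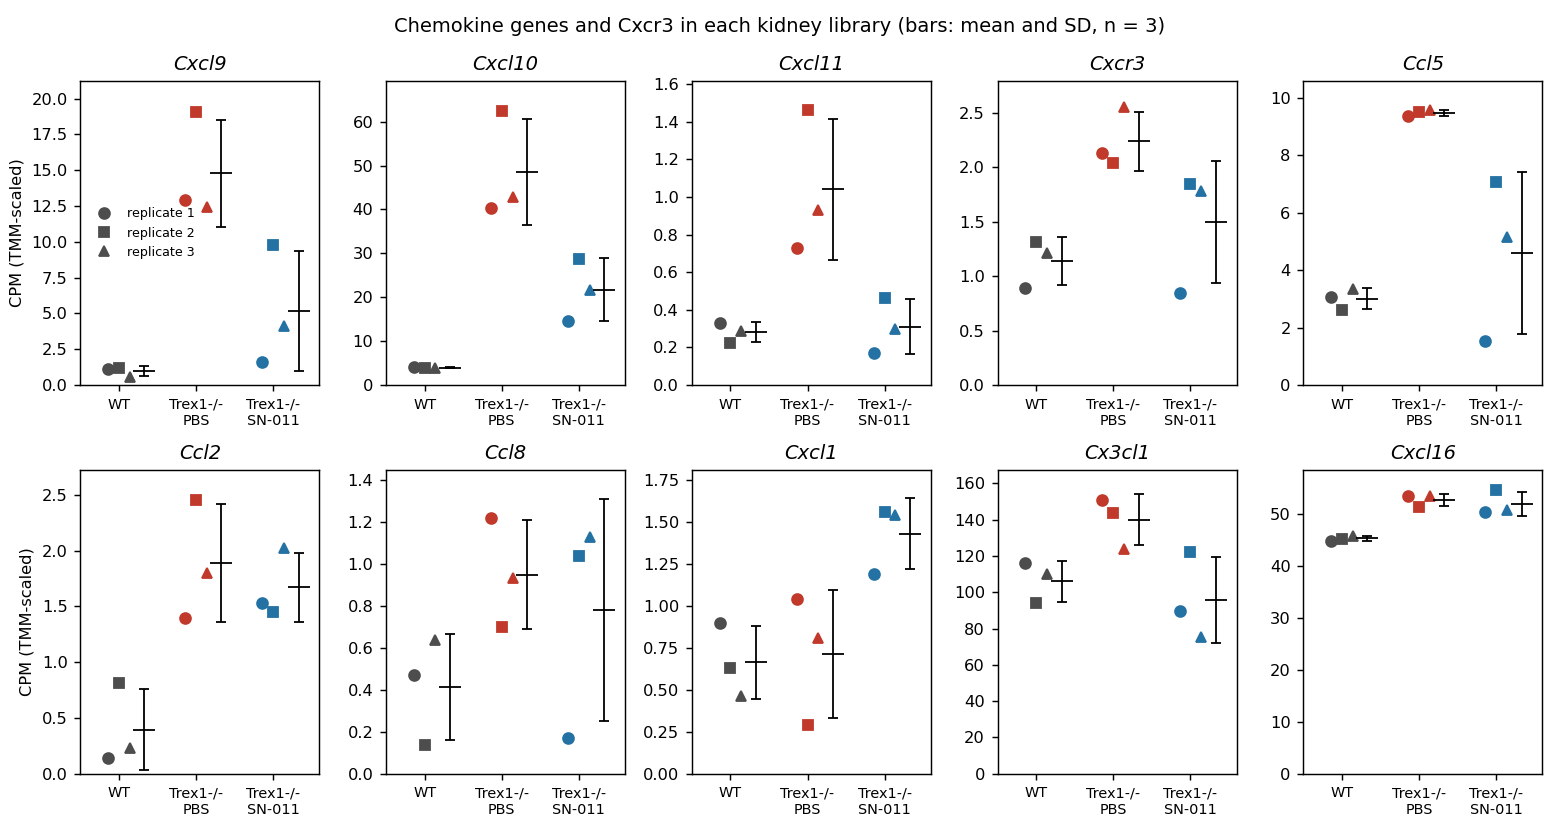
CPM (TMM-scaled, linear axes from 0) of the 10 genes in each of the 9 libraries, with replicate 1 as a circle, 2 as a square and 3 as a triangle, and the mean and SD of each group (n = 3) as a black bar. Cxcl10 sits at 3.82 to 4.2 CPM in WT, at 40.4 to 62.4 in Trex1-/- PBS and at 14.5 to 28.8 in Trex1-/- SN-011.

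Cxcl10 (ENSMUSG00000034855) was measured at 4.2, 3.88 and 3.82 CPM in WT replicates 1 to 3, at 40.4, 62.4 and 42.9 CPM in Trex1-/- PBS, and at 14.5, 28.8 and 21.7 CPM in Trex1-/- SN-011. The 3 groups did not overlap, with every SN-011 library between the highest WT and the lowest PBS library. The PBS mean (48.6 ± 12.1 CPM, SD, n = 3) was 12.2-fold the WT mean on the fitted scale (log2 fold change 3.61, SE 0.263, adjusted p = 0.000127). The SN-011 libraries were 5.45-fold above WT (log2 fold change 2.45, SE 0.259, adjusted p = 0.00343). Both calls were kept in all 19 alternative settings of the analysis. Against PBS the log2 difference of SN-011 was -1.17 (SE 0.231, 95% interval -1.68 to -0.652), with an unadjusted p of 0.000467 by edgeR and an adjusted p of 0.203. This difference was called by DESeq2 (adjusted p = 0.000804) and by edgeR's exact test (adjusted p = 0.00296), and in the edgeR fit without SN-011 replicate 2 (-1.43, adjusted p = 0.0128). That last fit held no SN-011 library with Y-linked reads, while all PBS libraries had them. Art3, whose exons overlap those of Cxcl10, stayed between 2.31 and 3.68 CPM over the 9 libraries.

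Cxcl9 (ENSMUSG00000029417) was measured at 1.13, 1.22 and 0.579 CPM in WT, at 12.9, 19.1 and 12.4 CPM in Trex1-/- PBS, and at 1.59, 9.8 and 4.15 CPM in SN-011 kidneys. The SN-011 libraries spread 6.17-fold between the lowest and the highest, against 1.54-fold within PBS, and replicate 1 came close to the WT range. Trex1-/- PBS kidneys were 14.8-fold above WT (log2 fold change 3.89, SE 0.573, adjusted p = 0.00596), a call kept in all 19 alternatives. SN-011 against PBS gave -1.51 (SE 0.491, 95% interval -2.6 to -0.425, adjusted p = 0.298), and without SN-011 replicate 2 it gave -2.37 and was called (adjusted p = 0.0151), as it was with no filter on low counts (-1.52, adjusted p = 0.0471). SN-011 against WT gave 2.37 (SE 0.578, adjusted p = 0.0807), and it passed with SN-011 replicate 1 left out (2.8, adjusted p = 0.0133). On all 9 libraries it passed by DESeq2 (adjusted p = 0.0129), by edgeR's exact test (0.00234) and with no filter on low counts (0.00123). With SN-011 replicate 2 left out it fell to 1.51 and did not pass.

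Cxcl11 (ENSMUSG00000060183) was the lowest member per length of exon in every group, with 3 to 25 counts a library. It was measured at 0.33, 0.226 and 0.289 CPM in WT, at 0.731, 1.46 and 0.932 CPM in Trex1-/- PBS, and at 0.17, 0.464 and 0.297 CPM in SN-011 kidneys. PBS libraries were above all others, while SN-011 and WT libraries overlapped. Cxcl11 passed the filter on low counts only through the PBS libraries, so its fold change of 1.87 on the log2 scale (SE 0.438, adjusted p = 0.0657) is given as a description and its test carries no weight in that direction. SN-011 against PBS gave -1.73 (SE 0.443, adjusted p = 0.241). The same limit holds there, since no SN-011 library reached the level of the filter. SN-011 against WT gave 0.14 (adjusted p = 0.92). Of its 3794 exon bases, 41.7% are shared with the antisense pseudogene Gm2673, which was listed at 0 counts in all libraries.

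Levels of Cxcl9 and Cxcl10 were set against each other within a library as CPM per kilobase of exon. Cxcl10 was 4.19, 4.38 and 4.64 times Cxcl9 in Trex1-/- PBS, 4.97, 4.27 and 8.84 times in WT, and 12.2, 3.94 and 6.98 times in SN-011 kidneys. The ratio was thus even among PBS libraries and spread most in the SN-011 group, where replicate 1 had the largest value. The WT ratios rest on 10 to 27 counts of Cxcl9 a library.

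Cxcr3 (ENSMUSG00000050232), the receptor of these ligands, was measured at 0.896, 1.31 and 1.21 CPM in WT, at 2.13, 2.04 and 2.55 CPM in Trex1-/- PBS, and at 0.85, 1.85 and 1.78 CPM in SN-011 kidneys. PBS libraries lay above all others, and SN-011 replicate 1 lay below all WT libraries. The log2 difference of PBS against WT was 0.97 (SE 0.323, adjusted p = 0.185), and of SN-011 against PBS -0.58 (SE 0.32, 95% interval -1.29 to 0.126, adjusted p = 0.519). SN-011 against WT gave 0.39 (adjusted p = 0.591). When 1 library was left out, SN-011 against PBS ran from -0.773 to -0.295 and SN-011 against WT from 0.195 to 0.67. Cxcr3 came to 11.4% to 15.8% of the summed CPM of 11 T cell markers in WT, to 7.62% to 10.1% in PBS and to 7.9% to 8.88% in SN-011 libraries. In bulk kidney, fewer cells of a type and less RNA per cell cannot be told apart.

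Ccl5 (ENSMUSG00000035042), an attractant of T cells and monocytes, was measured at 3.06, 2.62 and 3.36 CPM in WT, at 9.38, 9.52 and 9.57 CPM in Trex1-/- PBS, and at 1.53, 7.07 and 5.16 CPM in SN-011 kidneys. Ccl5 was nearly even among the PBS libraries, where the highest was 1.02-fold the lowest, and uneven in the SN-011 group, where the ratio was 4.62. PBS libraries were 3.15-fold above WT (log2 fold change 1.66, SE 0.402, adjusted p = 0.0738). This difference was called when SN-011 replicate 1 was left out of the shared fit (adjusted p = 0.00107), when only the 6 libraries compared were fitted (adjusted p = 0.000488) and by edgeR's exact test (adjusted p = 0.00489). Leaving out SN-011 replicate 2 gave a call as well (adjusted p = 0.0199), while the term for Y-linked reads gave 1.19 without a call (adjusted p = 0.312). SN-011 against PBS gave -1.05 (SE 0.393, 95% interval -1.92 to -0.178, adjusted p = 0.361), and -1.51 to -0.628 when 1 library was left out. SN-011 against WT gave 0.61 (adjusted p = 0.476), and without SN-011 replicate 1, which lay below all WT libraries, it gave 1.02 and was called (adjusted p = 0.0436). Leaving out 1 library at a time, it ran from 0.143 to 1.02.

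Ccl2 (ENSMUSG00000035385), the main ligand of CCR2, was measured at 0.141, 0.813 and 0.231 CPM in WT, at 1.4, 2.45 and 1.8 CPM in Trex1-/- PBS, and at 1.53, 1.45 and 2.02 CPM in SN-011 kidneys. Both Trex1-/- groups lay above all WT libraries and overlapped each other. The log2 fold change was 2.2 for PBS against WT (SE 0.514, adjusted p = 0.0646) and 2.02 for SN-011 against WT (SE 0.516, adjusted p = 0.0888). Without WT replicate 2 both were called (3.32, adjusted p = 0.0116, and 3.14, adjusted p = 0.0439), and both were called by DESeq2 (adjusted p = 0.00241 and 0.00803). PBS against WT passed as well with SN-011 replicate 2 left out (adjusted p = 0.0429). SN-011 against PBS gave -0.18 (SE 0.45, 95% interval -1.18 to 0.818, adjusted p = 0.91), an interval that leaves room for a change in either direction.

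Ccl8 (ENSMUSG00000009185), encoded 77.7 kb from Ccl2, was measured at 0.472, 0.135 and 0.636 CPM in WT, at 1.22, 0.701 and 0.932 CPM in Trex1-/- PBS, and at 0.17, 1.04 and 1.13 CPM in SN-011 kidneys. PBS and WT libraries did not overlap, and SN-011 replicate 1 fell inside the WT range. The differences were 1.22 for PBS against WT (SE 0.65, adjusted p = 0.408), -0.29 for SN-011 against PBS (adjusted p = 0.893) and 0.93 for SN-011 against WT (adjusted p = 0.503) on the log2 scale. These values rest on 3 to 20 counts a library, and the 95% interval of the first difference ran from -0.223 to 2.66.

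Cxcl1 (ENSMUSG00000029380) was measured at 0.896, 0.632 and 0.463 CPM in WT, at 1.04, 0.292 and 0.808 CPM in Trex1-/- PBS, and at 1.19, 1.56 and 1.54 CPM in SN-011 kidneys. WT and PBS libraries overlapped (log2 difference 0.08, SE 0.45, adjusted p = 0.954), and the sign of that difference changed when single libraries were left out. The SN-011 libraries lay above all 6 others, with a difference of 1.01 against PBS (SE 0.426, 95% interval 0.063 to 1.95, adjusted p = 0.41) and of 1.09 against WT (SE 0.418, adjusted p = 0.211). Neither was called in any alternative. Cxcl1 was the only member with a positive difference between SN-011 and PBS.

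Cx3cl1 (ENSMUSG00000031778) was the most abundant member. It was measured at 116, 94.1 and 110 CPM in WT, at 151, 144 and 124 CPM in Trex1-/- PBS, and at 89.9, 122 and 75.5 CPM in SN-011 kidneys. PBS libraries lay above all others, and SN-011 libraries overlapped with WT. The log2 difference was 0.39 for PBS against WT (SE 0.163, adjusted p = 0.294) and -0.54 for SN-011 against PBS (SE 0.164, 95% interval -0.907 to -0.18, adjusted p = 0.281). The latter passed with SN-011 replicate 2 left out (-0.76, adjusted p = 0.0179). SN-011 against WT gave -0.15 (adjusted p = 0.676).

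Cxcl16 (ENSMUSG00000018920) was measured at 44.8, 45.1 and 45.8 CPM in WT, at 53.4, 51.3 and 53.5 CPM in Trex1-/- PBS, and at 50.3, 54.7 and 50.7 CPM in SN-011 kidneys. Its highest library was at most 1.09-fold its lowest within a group, and both Trex1-/- groups lay just above WT. The fold was 1.17 for PBS against WT (log2 0.22, SE 0.0716, adjusted p = 0.174) and 1.15 for SN-011 against WT (log2 0.2, adjusted p = 0.189). SN-011 and PBS libraries overlapped, with a log2 difference of -0.02 (95% interval -0.181 to 0.136, adjusted p = 0.929). The Cxcl16 exons share 18.3% of their bases with Zmynd15 on the other strand. Zmynd15 was at 12.7 to 13.5 CPM in WT, at 15.2 to 17.8 CPM in PBS and at 12.5 to 14.5 CPM in SN-011 libraries, and the counting's strand setting is not given in the sources used here, so reads of the pair over the shared bases may not be separable.

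Counted over the list, 2 of 10 genes were called in Trex1-/- PBS against WT, both higher, where 1.88% of all genes tested were called (1.44% higher). The groups did not overlap for 9 of 10, all higher, against 13.1% of all genes in that direction, and the median log2 fold change was 1.44 against 0.00284 for all genes. Without Cxcl11, which reached the level of the filter in PBS libraries alone, 8 of 9 did not overlap and the median was 1.22. In SN-011 against PBS 0 of 10 were called, as were 0% of all genes, although 6 of 10 had an unadjusted p under 0.05 against 11.4% of all genes. DESeq2 called 1 of the 10 in this comparison, and edgeR's exact test also called 1. The groups did not overlap for 6 lower and 1 higher member, against 8.41% and 7.74% of all genes, and the median was -0.56 against -0.00534. Without Cxcl11 these were 5 of 9 at an unadjusted p under 0.05, 5 lower and 1 higher without overlap, and a median of -0.54. In SN-011 against WT 1 of 10 was called, higher, against 1.28% of all genes (0.823% higher), 5 lay above WT without overlap against 11.8% of all genes, and the median was 0.77 against -0.00337. Leaving out 1 library gave, with Cxcl11 counted, 2 to 5 called members in PBS against WT, 0 to 3 in SN-011 against PBS and 1 to 3 in SN-011 against WT, with the highest count in the first 2 comparisons reached without SN-011 replicate 2. The genes were listed with earlier results of these data known, and the comparisons share libraries, so these counts are not independent of each other.

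**Figure D2:**
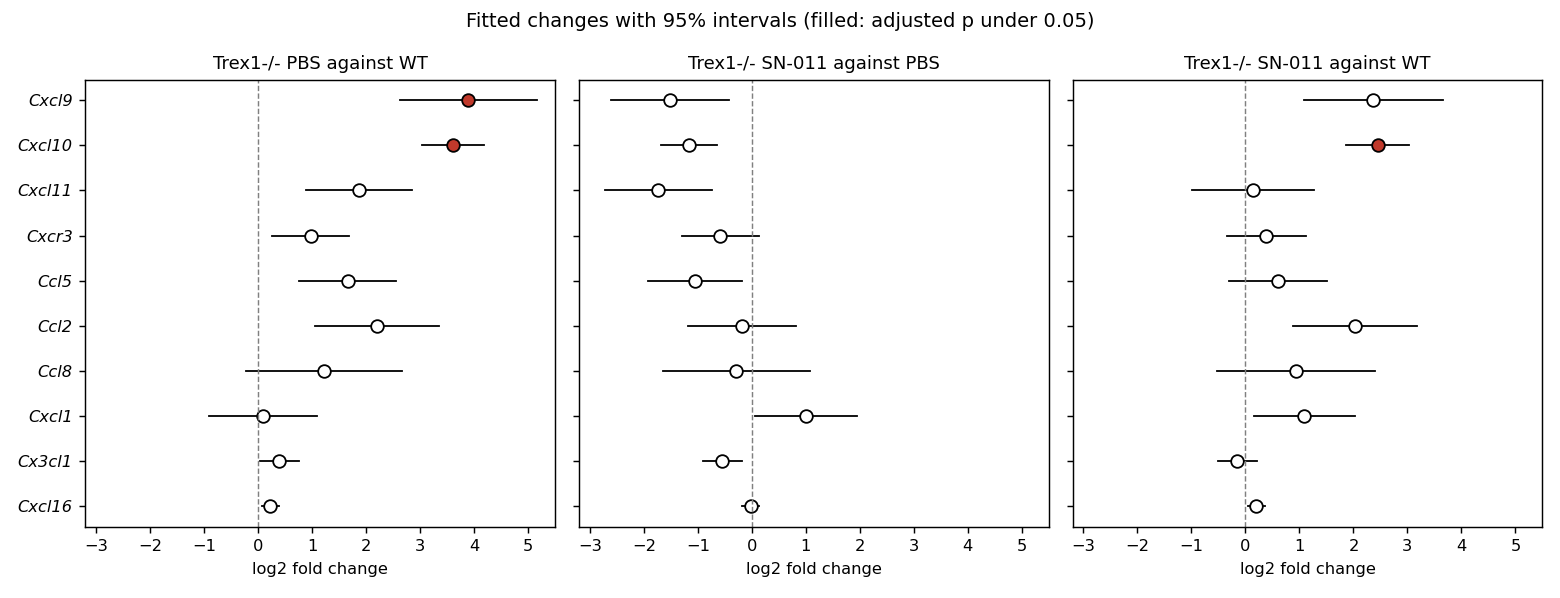
Fitted log2 fold changes of the 10 genes in the 3 comparisons, with 95% intervals from the edgeR quasi-likelihood fit, filled where the adjusted p was under 0.05. Filled points are those of Cxcl9 (3.89) and Cxcl10 (3.61) in Trex1-/- PBS against WT and of Cxcl10 (2.45) in SN-011 against WT.

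Per length of exon, the order of the members differed among the groups. In WT, Cx3cl1 led with 27.1 ± 2.83 CPM per kilobase (SD, n = 3), followed by Cxcl16 (15.0 ± 0.167), Ccl5 (3.14 ± 0.386) and Cxcl10 (1.76 ± 0.0898), none of which overlapped with the next. Below them Ccl8 and Cxcr3 overlapped, as did Cxcl1, Ccl2 and Cxcl9 as neighbours in the order, and Cxcl11 was last at 0.0743. In Trex1-/- PBS kidneys Cxcl10 (21.6 ± 5.36) took the second place between Cx3cl1 (35.5 ± 3.57) and Cxcl16 (17.5 ± 0.403), and Cxcl9 (4.9 ± 1.24) moved from the ninth to the fifth. Ccl8, Ccl2 and Cxcr3 followed with overlaps between neighbours, then Cxcl1 and Cxcl11, which also overlapped. In SN-011 kidneys Cxcl10 (9.62 ± 3.17) stood in the third place after Cx3cl1 (24.4 ± 6.03) and Cxcl16 (17.2 ± 0.791). There Cxcl10, Ccl5, Cxcl9 and Ccl8 each overlapped with the next in the order, as did Cxcr3 with Cxcl1, while Ccl2 did not overlap with Cxcr3.

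**Figure D3:**
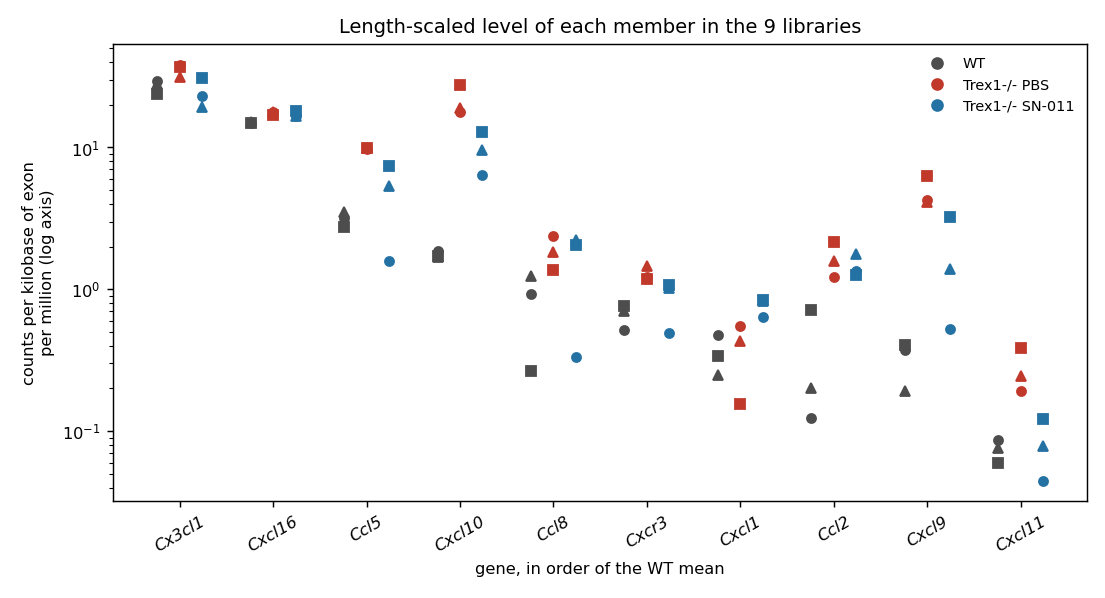
CPM per kilobase of exon (log axis) of the 10 genes in each library, ordered by the WT mean, with WT in grey, Trex1-/- PBS in red and Trex1-/- SN-011 in blue, and replicate 1 as a circle, 2 as a square and 3 as a triangle. Cxcl10 rises from 1.76 in WT to 21.6 in PBS, while Cxcl16 stays between 15 and 17.5 on average.

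The libraries of the SN-011 group differed among themselves more than those of the other groups for several members. The SD of log2 CPM in that group was 1.3 for Cxcl9, 1.2 for Ccl8 and 1.1 for Ccl5, while the median over all genes tested was 0.21. It was 0.49 for Cxcl10 and 0.065 for Cxcl16. Replicate 1 held the lowest SN-011 value of Cxcl9, Cxcl10, Cxcl11, Cxcr3, Ccl5, Ccl8, Cxcl1 and Cxcl16, and for Cxcl11, Cxcr3 and Ccl5 that value was below all WT libraries. Replicate 2, the library farthest from the others over all genes, held the highest SN-011 value of Cxcl9, Cxcl10, Cxcl11, Cxcr3, Ccl5, Cxcl1, Cx3cl1 and Cxcl16. In replicate 1, Cxcl10 was at 14.5 CPM, above every WT library.

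The Y-linked reads moved with the groups, and their part in these results was not tested beyond the values given here. Without SN-011 replicate 2, no SN-011 library held them while every PBS library did. In such a fit treatment and Y-linked reads cannot be told apart. This holds for the calls gained that way in SN-011 against PBS, those of Cxcl9, Cxcl10, Cx3cl1 and Irf7. Among libraries with such reads, Cxcl10 was at 3.82 CPM in the 1 WT library, at a mean of 48.6 in the 3 PBS libraries and at 28.8 in the 1 SN-011 library. Cxcl9 was at 0.579, 14.8 and 9.8 CPM in the same libraries, and Ccl5 at 3.36, 9.49 and 7.07 CPM. Among libraries without them, where no PBS library falls, the mean of 2 WT and of 2 SN-011 libraries was 4.04 and 18.1 CPM for Cxcl10, 1.18 and 2.87 for Cxcl9, and 2.84 and 3.35 for Ccl5. With a term for Y-linked reads in the fit, the calls of Cxcl9 and Cxcl10 in PBS against WT and of Cxcl10 in SN-011 against WT were kept, and Cxcl9 (2.14, adjusted p = 0.0481) and Ccl2 (2.05, adjusted p = 0.0499) were also called in SN-011 against WT. In PBS against WT the differences with that term were 3.18 for Cxcl9 (adjusted p = 0.0365) and 3.33 for Cxcl10 (adjusted p = 0.000476). Those of Ccl2, Cxcr3 and Ccl8 were 2.58, 0.749 and 0.696, and those of Cx3cl1, Cxcl16 and Cxcl1 were 0.174, 0.173 and 0.194, none of which passed. In SN-011 against PBS no member passed with that term. The differences of Cxcl9, Cxcl10, Cxcl11, Ccl5, Cxcr3 and Cx3cl1 shrank to -1.04, -0.926, -1.41, -0.658, -0.379 and -0.351. That of Ccl2 grew to -0.529, and those of Cxcl1, Ccl8 and Cxcl16 were 0.907, 0.234 and 0.0235.

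Genes whose log2 CPM was most like that of a member over the 9 libraries were sought among 14841 genes with a mean of at least 1 CPM. For Cxcl10 they were Slfn8, Oas1a, Mx2, Oas1g and Ifih1, with Pearson's r of 0.996 to 0.992. For Cxcl9 they were Olfr56, Rhot1, Herc6, Tor1aip1 and F830016B08Rik, with r of 0.988 to 0.971. The annotated span of Olfr56, an odorant receptor gene, contains the interferon-inducible gene Ifi47 on the same strand, so its count is uncertain. For Ccl5 they were Gimap3, Zap70, Cd3d, Il2rb and Elmo1, with r of 0.985 to 0.963. The last list includes Zap70 and Cd3d, parts of the T cell receptor signalling apparatus, and the first includes the interferon-stimulated genes Mx2 and Oas1a. For Cxcl16 they included Rad21, Pigr, Snx10 and Casp4, with r of 0.982 to 0.959, and for Cx3cl1 they were Ints2, Cyp1b1, Mlx, Loxl1 and Fam217a, with r of 0.975 to 0.953. Among pairs of members, r was highest for Cxcl9 and Cxcl10 (0.957) and for Cxcr3 and Ccl5 (0.935), and lowest for Cxcl11 and Cxcl1 (-0.424). These coefficients describe 9 libraries in which 3 group means set much of the variation, and no test was made on them.

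Beyond the members, 29 other chemokine ligands were listed, of which 12 were tested. Ccl19 and Ccl21a, whose symbols belong to more than 1 identifier, were left out. In Trex1-/- PBS against WT 2 were called, both higher, where 1.44% of all genes were called higher, and the median log2 fold change was 0.92 against 0.00284 for all genes. The count includes Ccl7, and the median includes Ccl7 and Ccl11, which both reached the level of the filter in no WT library. A higher Trex1-/- value was a condition of their tests, so the count and the median are not free of the filter. Ccl7, a CCR2 ligand encoded beside Ccl2, was at 0, 0.181 and 0.116 CPM in WT, at 0.853, 1.11 and 1.99 CPM in PBS and at 0.34, 0.522 and 1.31 CPM in SN-011 kidneys. Ccl7 reached the level of the filter in all PBS libraries, in 1 SN-011 library and in no WT library, so its fold change against WT (log2 3.64, SE 0.764, adjusted p = 0.0414) had to be upward to be tested, and SN-011 against PBS gave -0.86 (adjusted p = 0.608). Ccl9, a myeloid attractant, was at 1.32, 1.49 and 1.45 CPM in WT, at 5.36, 4.55 and 4.6 CPM in PBS and at 1.36, 4 and 4.45 CPM in SN-011 kidneys. The fold of PBS over WT was 3.4 (log2 1.76, SE 0.37, adjusted p = 0.0414), and SN-011 replicate 1 was again inside the WT range. SN-011 against PBS gave -0.57 (adjusted p = 0.571), and against WT 1.2 (adjusted p = 0.143). Both calls were lost when any one of the 3 WT or the 3 PBS libraries was left out, and with the term for Y-linked reads. The call of Ccl9 was lost too by limma-voom (adjusted p = 0.0604) and with the replicate block (adjusted p = 0.0615). The difference of Ccl7 ran from 3.06 without WT replicate 1 to 4.47 without WT replicate 2. None of the 12 was called in either comparison of the SN-011 group. In other settings SN-011 against WT was called for Ccl7 by DESeq2 (adjusted p = 0.027), by the exact test (0.0117) and with no filter (0.0411), and for Ccl9 by DESeq2 (0.0406) and with SN-011 replicate 1 left out (0.00856).

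The most abundant of the other ligands per length were Cxcl12, the CXCR4 ligand that retains leukocytes and progenitors (18.3 CPM per kilobase over the 9 libraries), Cxcl14 (5.16) and Ccl27a (4.93). Cxcl12 was at 157 ± 29.8 CPM in WT, 161 ± 3.65 in PBS and 131 ± 39.5 in SN-011 kidneys (SD, n = 3), and its groups overlapped. Ccl27a has near-identical copies in the annotation, so its count is uncertain. Of 22 other receptors, 14 were tested and 0 were called in any of the 3 comparisons. In PBS against WT 6 of the 14 did not overlap, all higher (13.1% of all genes), 4 had an unadjusted p under 0.05 (15.2% of all genes), and the median was 0.41. Both counts include Ccr7, and the median includes Ccr7 and Cxcr2. These 2 genes reached the level of the filter in no WT library, so the counts and the median are not free of the filter. The most abundant receptors per length were the CXCL12 scavenger Ackr3 (18.8), Cxcr4 (3.08) and Ccrl2 (2.31).

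**Figure D4:**
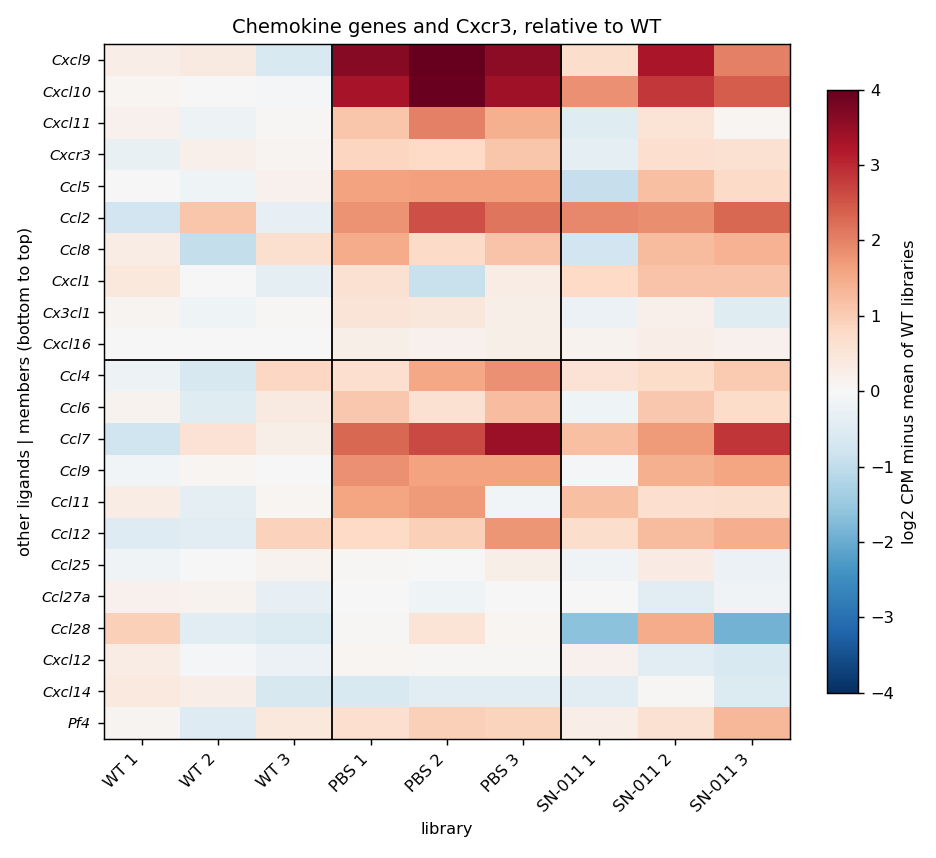
Log2 CPM minus the mean of the WT libraries for the members and the 12 other ligands tested (rows) in the 9 libraries (columns), on a log2 colour scale. Cxcl9, Cxcl10 and Ccl7 are the deepest red in the PBS columns, and column SN-011 1 is lower (paler red, white or blue) than the other SN-011 columns for Cxcl9, Ccl5, Ccl9 and Cxcr3.

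Upstream of the chemokine genes, 26 cytokines, receptors, kinases and transcription factors were listed and 21 were tested. In Trex1-/- PBS against WT 5 were called, all higher (1.44% of all genes), and the median log2 fold change was 0.18 against 0.00284 for all genes. They included the interferon-linked transcription factors Stat2, Irf1, Irf7 and Irf9. Irf7 was at 20.8, 24.1 and 37.4 CPM in WT, at 202, 272 and 222 CPM in PBS and at 66.9, 118 and 110 CPM in SN-011 kidneys, an order of groups without overlap as for Cxcl10. Its log2 fold change was 3.08 in PBS against WT (SE 0.266, adjusted p = 0.000237), 1.84 in SN-011 against WT (SE 0.255, adjusted p = 0.0103) and -1.24 in SN-011 against PBS (SE 0.247, adjusted p = 0.203).

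Stat2 rose by 1.44 and 0.92 (adjusted p = 0.000334 and 0.011) and Irf9 by 0.86 and 0.69 (adjusted p = 0.000784 and 0.00908) in PBS and in SN-011 against WT. Irf1, which drives Cxcl9 and Cxcl10 after interferon gamma, was at 20.0 ± 3.69 CPM in WT, 36.4 ± 1.52 in PBS and 29.4 ± 3.79 in SN-011 kidneys (SD, n = 3). It rose by 0.865 in PBS (SE 0.138, adjusted p = 0.00945), and its difference of 0.56 in SN-011 against WT did not pass (adjusted p = 0.0847). In SN-011 against WT 4 of the 21 were thus called, all higher (0.823% of all genes), and in SN-011 against PBS 0 were, with 7 at an unadjusted p under 0.05 by edgeR (11.4% of all genes) and with 3 called by DESeq2, Stat2 and Irf7 among them. Without SN-011 replicate 2, Irf7 was called in that comparison too (-1.39, adjusted p = 0.0268). The 4 calls of SN-011 against WT were all lost without WT replicate 1 and without WT replicate 2 (adjusted p of 0.0527 to 0.0951). Irf7 was among those lost in the fit of only the 6 libraries compared (1.84, adjusted p = 0.0532). The call of Irf1 in PBS against WT was lost without WT replicate 1, WT replicate 2 or PBS replicate 2 (adjusted p of 0.061, 0.0548 and 0.0527). It was lost too with the term for Y-linked reads (0.768, adjusted p = 0.0501).

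The interferon genes themselves were at the limit of detection. Ifnb1 had 0 counts in all libraries, where 3 counts would be 0.135 to 0.186 CPM, and Ifng was at most 0.124 CPM, with 0 in all WT libraries. Tnf was not tested either, at 0 to 0.472 CPM in WT, 0.559 to 0.934 in PBS and 0.116 to 0.397 in SN-011 libraries. Rela and Jak1 were the most abundant of the list per length after Irf7, at 21.1 and 20.1 CPM per kilobase against 31.5. Of the 3 proteases that trim or shed chemokines, 0 were called in any comparison. Adam10, which sheds CX3CL1 and CXCL16, was at 82.5 ± 5.32 CPM in WT, 83.7 ± 1.99 in PBS and 82.6 ± 11.5 in SN-011 kidneys (SD, n = 3). Dpp4, which trims CXCR3 ligands, was at 89.8 ± 10.5, 82.5 ± 1.76 and 86.7 ± 13.9 CPM, and Adam17 was at 43.4 ± 4.33, 51.4 ± 4.9 and 48.1 ± 1.37 CPM.

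Leukocyte markers moved with the chemokine genes, and their part in the differences was not tested. The 11 T cell markers summed to 7.87 to 10.6 CPM in WT, to 20.3 to 33.4 in PBS and to 9.92, 23.5 and 20.1 in SN-011 replicates 1 to 3. Of the 10 tested, 3 were called higher in PBS against WT (Cd3g, Cd247 and Cd4), where 1.44% of all genes were. Cd247 and Cd2 reached the level of the filter in no WT library, so a higher PBS value was a condition of their test. The 12 macrophage and monocyte markers summed to 189 to 225 CPM in WT, to 310 to 349 in PBS and to 185, 284 and 253 in SN-011 kidneys, with 5 of 12 called higher in PBS (Ly6c2, C1qa, C1qb, C1qc and Fcgr1). In SN-011 replicate 1, the library in which Ccl5 and Cxcr3 lay below all WT libraries, both sums were within or below the WT range.

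Ccl5 came to 21.6% to 26.2% of the summed T cell and NK cell markers in WT, to 20.7% to 31.8% in PBS and to 11.9% to 23.4% in SN-011 libraries. The 8 NK and cytotoxic markers summed to 3.57 to 4.92 CPM in WT, 8.16 to 12.9 in PBS and 2.89 to 7.42 in SN-011 kidneys, with 0 of 6 tested called in PBS against WT. The 9 neutrophil markers summed to 2.36 to 7.41, 6.19 to 11.8 and 6.01 to 13.1 CPM in the 3 groups, 0 of 4 tested were called, and the defining markers Ly6g and Mpo were at or near 0 in all libraries. Of the B and plasma cell markers, 1 of 3 tested was called higher (Jchain), and the 6 summed to 6.46 to 8.39, 17.5 to 20.4 and 12 to 32.6 CPM. Of 8 endothelial markers and 4 podocyte markers none was called, and 1 of 11 tubule markers was called lower (Slc5a2). Of the perirenal fat and adrenal markers, 4 and 1 were tested and 0 were called. The fat markers summed to 119 to 286, 86.9 to 154 and 102 to 119 CPM, and those of the adrenal gland to 5.26 to 8.02, 4.6 to 7.06 and 4.81 to 6.35 CPM.

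**Figure D5:**
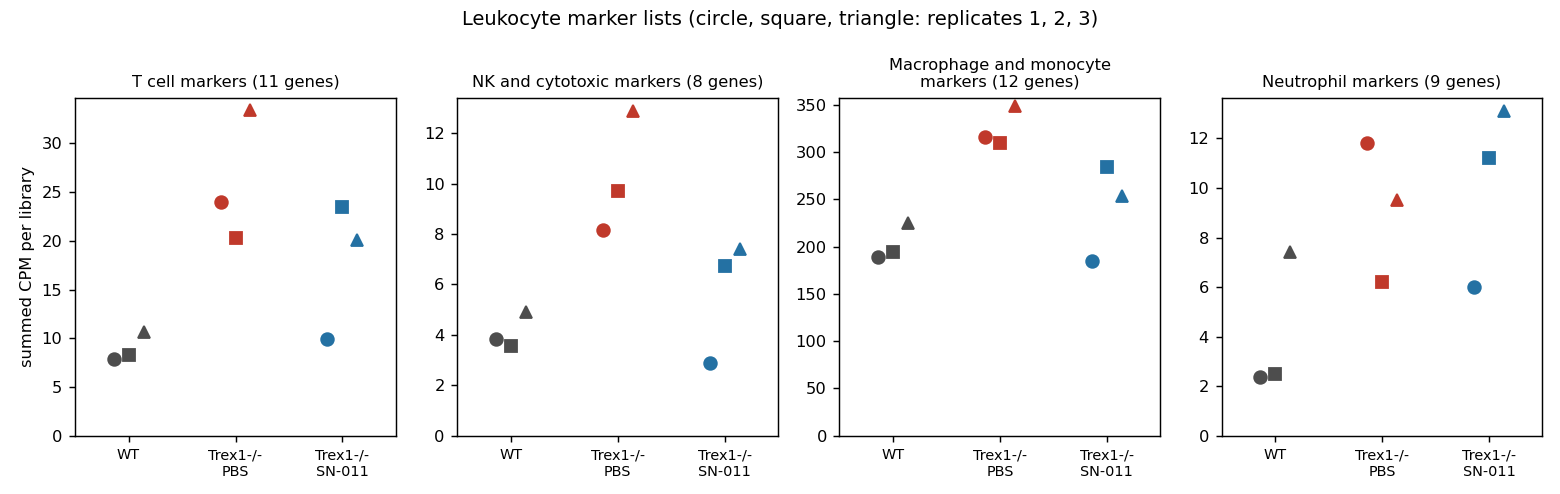
Summed CPM (linear axes from 0) of T cell, NK and cytotoxic, macrophage and monocyte, and neutrophil marker lists in each of the 9 libraries by group, with replicates 1, 2 and 3 as circle, square and triangle. SN-011 replicate 1 sits at 9.92 CPM for T cell markers, among the WT libraries, while the 3 PBS libraries sit at 20.3 to 33.4.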

How the data were processed

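PolyA-selected, strand-specific, paired-end RNA-seq was performed on 9 mouse kidney libraries, 3 per group. The authors trimmed the reads with Trimmomatic, aligned them with hisat2 and counted uniquely mapped pairs with featureCounts. The deposited values are raw counts per Ensembl gene on mm10 per the labels, and the tool versions, annotation and strand setting are not given in the sources used here. Of 54532 gene identifiers 54495 matched GENCODE vM21 (GRCm38), which gave symbols, positions and exon lengths.

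The analysis used edgeR 4.0.16 under R 4.3.3. filterByExpr (minimum count 10, minimum total 15) kept 16646 genes, and libraries, at 16118813 to 21928965 counts, were scaled by TMM. A single quasi-likelihood model, with 1 coefficient for each of the 3 groups, was fitted to the 9 libraries, and the comparisons were tested by its F test with Benjamini-Hochberg adjustment over all genes at 0.05. Standard errors were derived from the F statistic and intervals cover 95%. Log2 CPM used a prior count of 2. On simulated data, 58.9% of genes changed by 1 and 91.8% of those changed by 2 on the log2 scale were recovered in Trex1-/- PBS against WT, with 7 false calls among 16646 genes.

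The 10 members were named in every comparison. Other genes were named where they were called in any comparison or were among the 3 most abundant per length of their list, and the 5 genes most like a member were named for Cxcl9, Cxcl10, Ccl5, Cxcl16 and Cx3cl1. A few genes that this rule names are not reported here. The neighbours Art3, Gm2673 and Zmynd15, and Tnf, Ifnb1, Ifng and the marker genes named, fall outside that rule, and the neighbours were chosen after their values were seen. The members and lists were chosen with earlier results of these data known. The alternatives were scaling by upper-quartile factors or by size factors of DESeq2 1.42.0, 2 other filters, edgeR's exact negative binomial test (the study names a negative binomial test of edgeR), the Wald test of DESeq2, limma-voom (limma 3.58.1), a fit of 6 libraries, a replicate block, a term for Y-linked reads, and leaving out each library.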

Additional observations from a re-analysis of the deposited data

How the results depend on the processing

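In all 19 alternatives the calls of Cxcl9 and Cxcl10 in Trex1-/- PBS against WT and of Cxcl10 in SN-011 against WT kept their direction and their side of the threshold. Over all 30 member values, 507 of 551 runs kept both, 33 newly passed the threshold, 0 lost a call and 11 turned in sign, the cause of which was not tested. Mean CPM of members and named genes under DESeq2 or upper-quartile factors stayed within 1 SD, except Cxcl16 in WT with upper-quartile factors (45.8 CPM).

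With no filter beyond 1 read, the count of genes called was 707 in PBS against WT (313 as reported), 127 in SN-011 against PBS (0) and 607 in SN-011 against WT (213), with 4, 2 and 3 members, and 2 list genes called in SN-011 against PBS. The DESeq2 Wald test called 726, 183 and 816 genes and 4, 1 and 3 members, with 3 list genes in SN-011 against PBS and 7 in SN-011 against WT. The exact test called 686, 127 and 597 genes and 5, 1 and 3 members, with 2 list genes in SN-011 against PBS. A fit of 6 libraries called 750 genes and 4 members in PBS against WT, and 41 genes and 2 list genes in SN-011 against WT. The Y-linked term gave 198 genes and 4 list genes in PBS against WT, and 656 genes and 3 members in SN-011 against WT.

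Leaving out 1 library gave 152 (without PBS replicate 2) to 774 (without SN-011 replicate 2) genes, 2 to 5 members and 4 to 10 list genes in PBS against WT. In SN-011 against PBS it gave 0 to 517 genes, the highest without SN-011 replicate 2, and 22 without SN-011 replicate 3, with 0 to 3 members and 0 to 2 list genes. In SN-011 against WT it gave 38 (without WT replicate 1) to 375 (without SN-011 replicate 2) genes, 1 to 3 members and 0 to 5 list genes.

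The signs that turned were those of values near 0. Cxcl1 in PBS against WT was -0.0454 by limma-voom and ran from -0.291 to 0.458 when 1 library was left out, below 0 without WT replicate 3 (-0.109), PBS replicate 1 (-0.291) or PBS replicate 3 (-0.0203). In SN-011 against PBS, Ccl8 was 0.234 with the Y-linked term and ran from -0.646 to 0.197 (without SN-011 replicate 1), Cxcl16 was 0.0235 with that term and ran from -0.0648 to 0.00416 (without SN-011 replicate 1), and Ccl2 ran from -0.354 to 0.056 (without PBS replicate 2). Cxcl11 in SN-011 against WT ran from -0.272 (without SN-011 replicate 2) to 0.429, and was -0.00664 without WT replicate 2.

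Same-numbered libraries did not deviate together in every comparison (correlations of -0.294 to 0.242). These correlations cannot show whether such libraries share more than a number. The replicate block gave 312, 0 and 231 genes, 2, 0 and 1 members and 8, 0 and 4 list genes in the 3 comparisons. With 3 to 25 counts of Cxcl11, 3 to 20 of Ccl8 and 5 to 27 of Cxcl1 a library, the estimates for these genes rest on few reads.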
